A study of Mus musculus with 18 samples.

Results

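The genes described here are 9 interferon-stimulated genes of the mouse: Gbp2, Ifi35, Isg15, Irf7, Ifit3, Ifit1, Stat2, Usp18 and Ifi27l2a. They were read on Illumina mouse BeadChips with every probe that the platform annotation gives to them, which came to 13 of 45281 probes and to 9 of the 19057 genes that the annotation names. A probe was kept when its detection p-value was under 0.05 on at least 3 of the 18 arrays, and each gene was represented by its brightest kept probe. By this filter 8 of the 9 genes were tested among 11149 genes, and Ifit1 was not. All groups were SV40 tsA209-transformed hepatocytes of C57BL/6N mice without the aryl hydrocarbon receptor (AhR-/-), which is a ligand-activated transcription factor. One line, called reconstituted, carries TetR (pLenti6/TR) and a HisMyc-tagged mouse AhR, and the other, called AhR-null, carries TetR (pLenti6/TR) alone. Each line was held in suspension for 8 h, given 10 µM YH439, an AhR ligand, for 8 h while adherent, or given 0.1% DMSO for 8 h while adherent, with 3 arrays in each of the 6 groups. All cells were kept at 34 °C in 10% serum with 100 nM dexamethasone. Suspended cells had been dislodged with trypsin and EDTA and taken up in 1.68% methylcellulose, whereas their controls stayed on the flask. The labels record no DMSO for suspended cells or for cells with YH439. They do not say whether a line is a single clone, so the AhR transgene and any other difference between the lines cannot be told apart. They also do not say that triplicates came from separate cultures, and the p-values then measure only a spread between arrays that may be technical.

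Interferons are secreted proteins that bind receptors on the cell surface. Type I interferons activate the kinases JAK1 and TYK2, which phosphorylate STAT2. STAT2 and IRF9 are parts of the complex ISGF3, which binds the interferon-stimulated response element (ISRE) in target promoters. Interferon gamma acts on many promoters through another element, the gamma-activated site (GAS). Many of the targets restrict viruses, and several feed back on the pathway itself. Hepatocytes respond to both kinds of interferon, and many cells keep a low level of these transcripts without infection.

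Promoter windows from RefSeq (build GRCm38.p6, 250 bases before to 50 bases after a gene's start) were matched by symbol for 7 of the 9 genes, all but Usp18 and Ifi27l2a. The ISRE core, GAAA followed by any 2 bases (NN) and GAAA, searched on both strands, was in 5 of the 7 windows, against 3.44% of all 32851 windows. The letters TTCNNNGAA of the GAS were in 1 of the 7 windows and in 8.3% of all windows, and the AhR response element core GCGTG was in 1 of the 7 and in 32.4% of all. The windows below are those of 3 genes that hold the ISRE core and fell in suspended reconstituted cells, of Stat2, which holds it and did not fall, and of Ifi35, which does not hold it and fell. They are written 5′ to 3′ along the gene, and capitals mark the ISRE core on either strand.
Isg15: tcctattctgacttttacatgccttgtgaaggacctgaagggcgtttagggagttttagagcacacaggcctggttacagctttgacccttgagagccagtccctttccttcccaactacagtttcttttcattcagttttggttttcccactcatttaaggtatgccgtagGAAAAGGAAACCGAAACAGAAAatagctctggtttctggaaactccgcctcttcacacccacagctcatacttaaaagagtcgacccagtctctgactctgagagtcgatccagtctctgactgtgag
Gbp2: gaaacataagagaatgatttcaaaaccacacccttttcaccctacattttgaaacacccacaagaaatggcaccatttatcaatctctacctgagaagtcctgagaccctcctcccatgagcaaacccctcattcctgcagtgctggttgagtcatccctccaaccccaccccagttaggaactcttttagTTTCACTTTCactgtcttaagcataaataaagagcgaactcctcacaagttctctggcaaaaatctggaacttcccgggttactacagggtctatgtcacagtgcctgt
Ifit3: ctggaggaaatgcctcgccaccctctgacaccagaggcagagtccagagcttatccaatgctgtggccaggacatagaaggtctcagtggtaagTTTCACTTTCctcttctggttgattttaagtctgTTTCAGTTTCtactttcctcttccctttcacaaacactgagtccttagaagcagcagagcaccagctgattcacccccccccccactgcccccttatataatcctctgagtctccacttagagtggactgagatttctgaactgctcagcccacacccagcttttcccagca
Stat2: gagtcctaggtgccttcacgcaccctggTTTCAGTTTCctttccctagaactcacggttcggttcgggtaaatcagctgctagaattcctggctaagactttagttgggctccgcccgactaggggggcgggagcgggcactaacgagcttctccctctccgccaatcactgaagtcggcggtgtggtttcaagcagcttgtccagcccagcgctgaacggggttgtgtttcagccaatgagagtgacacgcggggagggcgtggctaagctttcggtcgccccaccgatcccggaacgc
Ifi35: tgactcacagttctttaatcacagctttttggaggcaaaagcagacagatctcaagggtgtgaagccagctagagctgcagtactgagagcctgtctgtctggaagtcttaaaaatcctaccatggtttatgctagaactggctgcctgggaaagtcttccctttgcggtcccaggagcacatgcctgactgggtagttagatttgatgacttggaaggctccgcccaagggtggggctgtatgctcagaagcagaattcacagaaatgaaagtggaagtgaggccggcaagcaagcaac
The Isg15 window (chr4:156200769-156201068, minus strand) holds 3 overlapping matches that begin 78, 72 and 66 bases before the start. The Gbp2 window (chr3:142620413-142620712, plus strand) holds 1 match, 59 bases before the start. The Ifit3 window (chr19:34583279-34583578, plus strand) holds 2, which begin 156 and 122 bases before the start. In the Stat2 window (chr10:128270248-128270547, plus strand) the match lies farther out, 222 bases before the start, and this window also holds 3 matches to GCGTG. The Ifi35 window (chr11:101448162-101448461, plus strand) holds no ISRE core and 1 match to TTCNNNGAA. The window of Ifit1 holds 2 ISRE cores and that of Irf7 holds none of the 3 motifs. A match of letters is a description of the sequence and does not show that a factor binds there.

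Each array detected between 42% and 44.6% of its probes. The 6 dimmest arrays, number 3 of each AhR-null group and number 1 of each reconstituted group, had median intensities of 6.03 to 7.19, against 8.78 to 11.9 on the other 12. The Ahr probe was detected on 0 of 9 reconstituted and 1 of 9 AhR-null arrays, so it does not check the labels of the lines. The hepatocyte label was checked against 11 markers on the array, of which 6, including Alb, Apoa1, Apob and Ttr, were detected on no array and 2 on every array. All 10 mesenchymal and stellate markers were detected on every array. Of 12 macrophage markers 9 were detected on no array, Ptprc and Adgre1 among them, and 3 on every array (Csf1r, Lyz2 and Cd14). Of 11 lymphocyte and plasmacytoid dendritic markers 6 were detected on no array and 3 on every array (Siglech, Bst2 and Tcf4). Of 7 endothelial markers 3 were detected on no array and 0 on every array.

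The probes of 7 of the 9 genes were detected on all 18 arrays (Gbp2, Ifi35, Isg15, Ifit3, Stat2, Usp18 and Ifi27l2a). The Irf7 probe was detected on 17 arrays and missed 1 of the 3 arrays of suspended reconstituted cells. The only Ifit1 probe was detected on 0 of 18 arrays, with intensities between −15.1 and 13.3, so Ifit1 has no measured level in any group. Gbp2 has a second kept probe, detected on 6 arrays, and another detected on none. Usp18 and Ifit3 each have a second kept probe, detected on 18 and 17 arrays. Gbp2, Ifit3 and Ifi27l2a have close relatives in the genome, and whether their probes also bind transcripts of those relatives was not analysed here. Levels below are log2 intensities after background correction, an offset of 16 and quantile normalization, a scale that understates the change of dim probes. Levels of different probes are not compared.

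**Figure D1:**
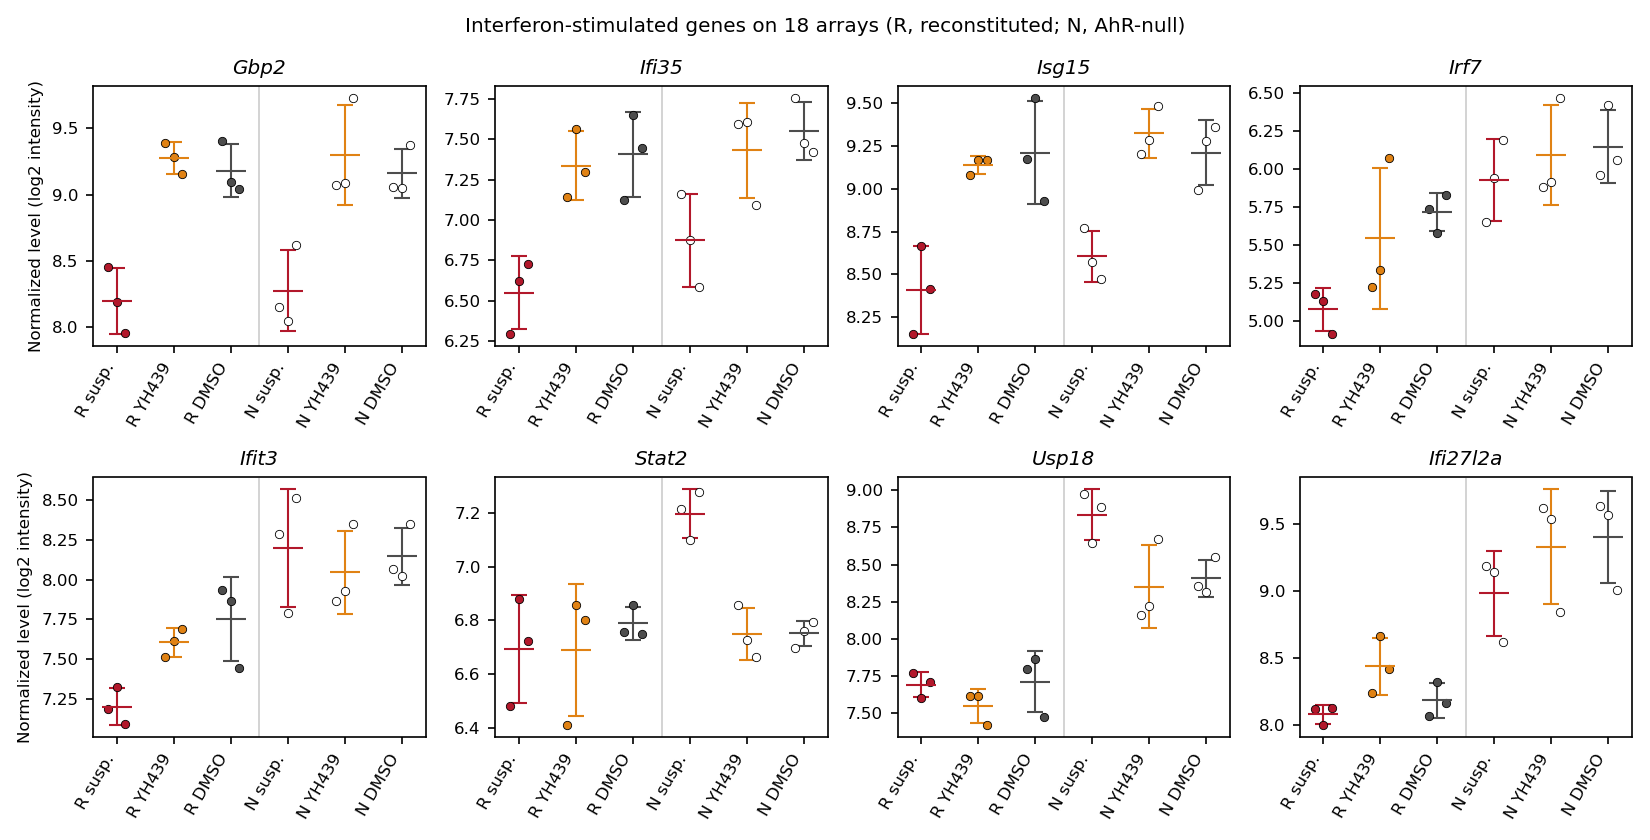
Normalized level (log2 intensity, vertical axis) of the tested probe of 8 interferon-stimulated genes on each of 18 arrays, grouped on the horizontal axis (R, reconstituted; N, AhR-null; susp., suspension). Points are arrays, the long bar is the group mean and the short bars are 1 SD (n = 3). Gbp2, Ifi35 and Isg15 are low in both suspended groups, Usp18 and Ifi27l2a are lower in the 3 reconstituted groups than in the 3 AhR-null groups, and Stat2 stands at 7.20 in suspended AhR-null cells against 6.69 to 6.79 in the other groups.

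Suspension was set against adherent DMSO in each line to ask how these genes differ in suspended cells with and without the transgene. Loss of adhesion, the trypsin and EDTA, the methylcellulose and the lack of recorded DMSO cannot be told apart in this comparison. In reconstituted cells 5 of the 8 tested genes fell: Gbp2 to 50.7% of its DMSO level on the normalized intensity scale, Ifi35 to 55.2%, Isg15 to 57.4% and Ifit3 to 68.2%, and Irf7, which is near background, by 0.64 on the log2 scale. Of all 11149 genes tested 13.4% fell, 10.7% rose and 24.1% passed in either direction (adjusted p under 0.05, limma with Benjamini-Hochberg). The median log2 change was −0.59 over the 8 genes and −0.04 over all genes. With the replicate block 48.6% of all genes passed, and the same number of these genes, 5. In the authors' processed values 1686 genes rose and 1282 fell, against 1194 and 1495 here.

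Gbp2 encodes an interferon-inducible guanylate-binding GTPase that acts against intracellular pathogens. Its level was 8.46, 8.19 and 7.96 in suspended reconstituted cells, against 9.41, 9.10 and 9.04 with DMSO. The highest suspended array was below the lowest DMSO array, and the log2 change was −0.98 ± 0.20 (SE; adjusted p = 0.00179). Isg15 encodes a ubiquitin-like protein that is attached to other proteins after interferon. It read 8.15, 8.66 and 8.41 in suspension, against 9.17, 9.53 and 8.93 with DMSO, again with no overlap. The log2 change was −0.80 ± 0.16 (adjusted p = 0.00178). Ifi35 encodes an interferon-induced leucine zipper protein. It read 6.29, 6.62 and 6.73 in suspension, against 7.12, 7.65 and 7.44 with DMSO, a change of −0.86 ± 0.19 (adjusted p = 0.00412). These 3 genes passed under every alternative processing and with any single array left out, with adjusted p of 1.82e-06 to 0.0130 for Gbp2, 0.000430 to 0.0140 for Isg15 and 1.90e-05 to 0.0346 for Ifi35. The second kept Gbp2 probe, 1 of these alternatives, gave −0.74 (adjusted p = 0.00726). It was detected on 0 of 3 suspended and 2 of 3 DMSO arrays of this line, so the size of that change is uncertain.

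Irf7 encodes the transcription factor that amplifies type I interferon production, and its fall was less secure. It read 5.18, 5.14 and 4.92 in suspended reconstituted cells, against 5.74, 5.58 and 5.83 with DMSO. Of these suspended arrays 1 was not above background, and the mean intensity before normalization was 16.7 in suspension against 34.0 with DMSO, so the size of the change is uncertain. The groups did not overlap, and the log2 change was −0.64 ± 0.22 (adjusted p = 0.0433, range 0.00460 to 0.145 over 28 alternatives). The call was lost without any of the 3 suspended arrays, any of the 3 DMSO arrays or number 2 of the suspended AhR-null arrays (adjusted p 0.0517 to 0.145). Ifit3 encodes a protein of the family that binds viral RNA with Ifit1. It read 7.19, 7.32 and 7.09 in suspension, against 7.94, 7.87 and 7.45 with DMSO, a change of −0.55 ± 0.18 (adjusted p = 0.0382, range 0.00308 to 0.246 over 29 alternatives). This call was lost without any of the 3 suspended arrays, without DMSO number 1 or 2 or without number 2 of the reconstituted arrays with YH439 (adjusted p 0.0500 to 0.141), and also without the 6 dimmest arrays (0.0644). The second Ifit3 probe gave −0.40 (adjusted p = 0.246).

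Stat2, Usp18 and Ifi27l2a did not pass in suspended reconstituted cells. Stat2, which encodes a subunit of ISGF3, read 6.48, 6.88 and 6.72 in suspension, against 6.76, 6.86 and 6.75 with DMSO, a change of −0.09 with a 95% interval of −0.36 to 0.17. Usp18, the protease that removes ISG15 and also blocks the type I receptor, read 7.77, 7.60 and 7.71, against 7.80, 7.86 and 7.48 (−0.02, interval −0.33 to 0.29). Ifi27l2a, an interferon-induced gene of the ISG12 family, read 8.11, 8.00 and 8.12, against 8.06, 8.32 and 8.16 (−0.10, interval −0.56 to 0.35). The arrays of the groups overlapped for all 3. In all, 5 of the 8 genes lay wholly below DMSO and none wholly above, against 26.6% and 19.2% of all genes.

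In AhR-null cells the genes divided: 3 of the 8 fell in suspension and 2 rose, against 11.9% and 10.8% of all genes (22.6% in either direction, 47.1% with the replicate block). Gbp2 read 8.15, 8.05 and 8.62 in suspended AhR-null cells, against 9.06, 9.05 and 9.38 with DMSO (−0.89 ± 0.20, adjusted p = 0.00402). Ifi35 read 7.16, 6.88 and 6.58 in suspension, against 7.76, 7.47 and 7.42 (−0.68 ± 0.19, adjusted p = 0.0188). Isg15 read 8.77, 8.57 and 8.47 in suspension, against 8.996, 9.28 and 9.36 (−0.61 ± 0.16, adjusted p = 0.0124). For these 3 the suspended arrays lay wholly below the DMSO arrays, as they did in the reconstituted line, and those of the 2 genes that rose lay wholly above, against 17.2% of all genes wholly below and 14.4% wholly above. The Ifi35 call was lost without DMSO number 1 (adjusted p = 0.0805) or suspended number 3 (0.0705), with a range of 0.000124 to 0.105 over 28 alternatives. The Isg15 call was lost without the 6 dimmest arrays (0.0705, the highest over its alternatives, the lowest being 0.00302). The second kept Gbp2 probe was not above background on any array of suspended or DMSO AhR-null cells and gives no measured change there.

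Stat2 and Usp18 rose in suspended AhR-null cells. Stat2 read 7.21, 7.10 and 7.28 in suspension, against 6.70, 6.76 and 6.79 with DMSO. The groups were well apart, with a log2 change of 0.44 ± 0.12 (adjusted p = 0.0176, range 0.00120 to 0.0691), and the call was lost without DMSO number 1 (0.0601). Usp18 read 8.97, 8.65 and 8.89 in suspension, against 8.36, 8.32 and 8.55 with DMSO. Its change was 0.43 ± 0.14 (adjusted p = 0.0440, range 0.00613 to 0.273). This call was lost without any of 11 arrays (0.0501 to 0.144): suspended number 1 or 3, DMSO number 1 or 2, reconstituted DMSO number 1 and any of the suspended or YH439 arrays of the reconstituted line. The second Usp18 probe gave 0.38 (adjusted p = 0.273).

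The other 3 tested genes did not pass in suspended AhR-null cells. Ifi27l2a read 9.18, 9.14 and 8.62 in suspension, against 9.63, 9.56 and 9.002 with DMSO. Its arrays overlapped (−0.42 ± 0.21, adjusted p = 0.185), but number 3 was lowest in both groups, and with the replicate block the same change passed (adjusted p = 0.00227), as it did without the 6 dimmest arrays (−0.43, adjusted p = 0.00878; range 0.00227 to 0.479 over 28 alternatives). Irf7 read 5.65, 5.94 and 6.19 in suspension, against 5.96, 6.42 and 6.06 (−0.22, interval −0.68 to 0.24). Ifit3 read 8.29, 7.79 and 8.52, against 8.07, 8.02 and 8.35 (0.05, interval −0.34 to 0.44). Over the 8 genes the median change was −0.32, against −0.04 over all genes. Less RNA from each cell and fewer cells that express a gene cannot be told apart in these bulk samples.

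**Figure D2:**
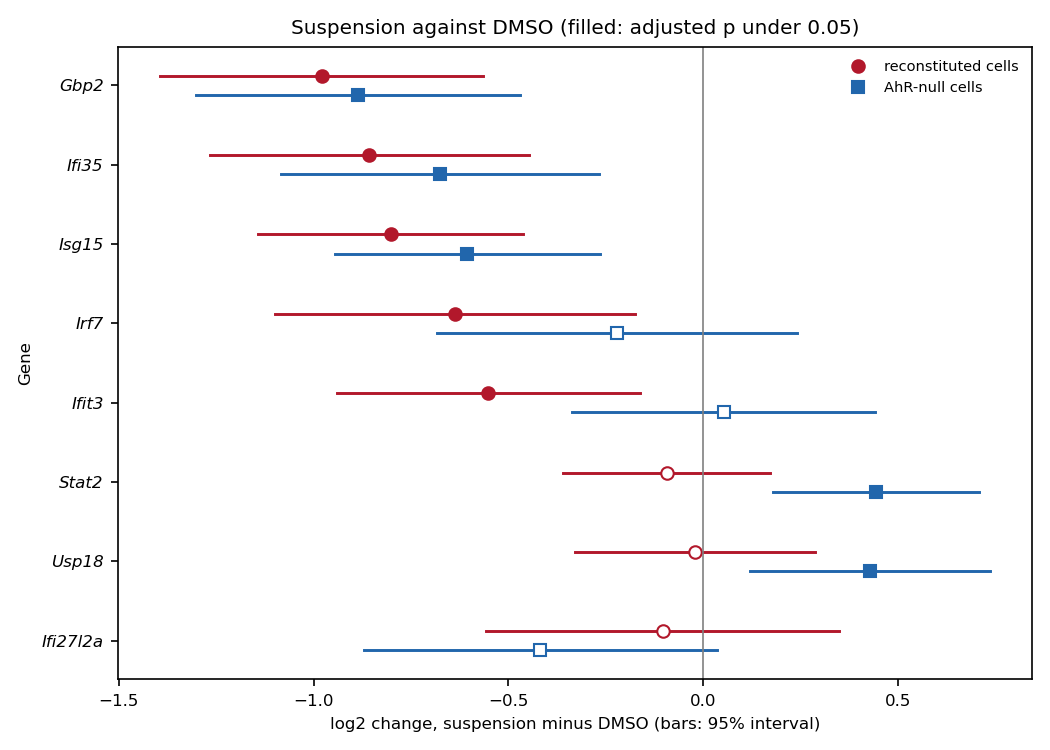
Log2 change (suspension minus DMSO, horizontal axis) of 8 interferon-stimulated genes (vertical axis) in reconstituted cells (circles) and AhR-null cells (squares). Bars are 95% intervals from the fit over 18 arrays, and filled symbols passed an adjusted p under 0.05. Gbp2, Ifi35 and Isg15 lie left of 0 in both lines, and Stat2 (0.44) and Usp18 (0.43) lie right of 0 in AhR-null cells.

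Macrophage markers were examined beside these changes because macrophages are a source and a target of interferon. Their summed intensity over 12 genes was 296.5 to 441.9 in suspended reconstituted cells and 200.8 to 334.8 with DMSO, and 242.6 to 423.9 in suspended AhR-null cells and 226.7 to 374.6 with DMSO. Csf1r, the receptor of a macrophage growth factor, was the 1 marker of the 3 tested that passed the threshold. It rose by 1.35 ± 0.14 and 1.39 ± 0.14 on the log2 scale in reconstituted and AhR-null cells (adjusted p = 5.42e-06 and 4.45e-06), and it was chosen for mention after its values were seen. The median change of the 3 markers was −0.19 in reconstituted and −0.27 in AhR-null cells. Under the replicate block 1 of the 3 rose and 1 fell in reconstituted cells, and 1 rose and 2 fell in AhR-null cells. The block called 48.6% and 47.1% of all genes in these comparisons. The lymphocyte and plasmacytoid dendritic list, which shares Bst2 with the list of type I interferon targets, summed to 1852 to 2390 in suspended reconstituted cells and 1805 to 2783 with DMSO. In AhR-null cells it summed to 1866 to 3275 in suspension and 2146 to 3217 with DMSO. The part of other cells in the changes was not tested.

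The difference between the lines in the response to suspension was tested directly. None of the 8 genes passed (limma, adjusted p of 1.00 for each, 0.151 to 0.785 with the replicate block), and 0.00897% of all genes did. Without adjustment 3 of the 8 had a p under 0.05, against 2.65% of all genes. The suspension change in reconstituted cells minus that in AhR-null cells was −0.54 ± 0.18 for Stat2 (unadjusted p = 0.00794), −0.60 ± 0.26 for Ifit3 (0.0332) and −0.45 ± 0.20 for Usp18 (0.0441). For Gbp2, Ifi35 and Isg15 it was −0.09, −0.18 and −0.20, with 95% intervals that run from −0.76 to 0.49. The rises of Stat2 and Usp18 in AhR-null cells are therefore not shown to be absent from reconstituted cells, and neither are the falls of Irf7 and Ifit3 shown to be absent from AhR-null cells.

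YH439 was set against DMSO in the adherent cells, with the same DMSO arrays as above. In reconstituted cells none of the 8 genes passed, against 0.135% of all genes, and none had an unadjusted p under 0.05, against 2.66% of all genes. Isg15 read 9.08, 9.17 and 9.17 with YH439, against 9.17, 9.53 and 8.93 with DMSO. Gbp2 read 9.39, 9.29 and 9.15, against 9.41, 9.10 and 9.04. The groups overlapped for each of the 8 genes, and 8.67% of all genes did not overlap, a share too low to set these 8 apart. The changes ran from −0.17 (Irf7) to 0.25 (Ifi27l2a), and their 95% intervals together spanned −0.63 to 0.71, so a change in either direction of up to about that size is not excluded for some genes.

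In AhR-null cells YH439 changed none of the 8 past the threshold, and limma called 0% of all genes, with 185 genes (1.66%) at an unadjusted p under 0.05, none of them among the 8. The authors' processed values gave 1 called gene and the replicate block 2, again none of the 8. Isg15 read 9.21, 9.29 and 9.48 with YH439, against 8.996, 9.28 and 9.36 with DMSO. Ifi27l2a read 9.62, 9.53 and 8.84, against 9.63, 9.56 and 9.002. The changes of the 8 genes ran from −0.12 (Ifi35) to 0.14 (Gbp2), with intervals between −0.53 and 0.55. The difference between the lines in the response to YH439 passed for none of the 8 and for 0.0269% of all genes.

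The lines were then compared within each treatment. With DMSO, reconstituted cells had less Usp18 and less Ifi27l2a than AhR-null cells, 2 of the 8 genes, against 0.457% of all genes lower and 0.547% called in either direction. Ifi27l2a read 8.06, 8.32 and 8.16 in reconstituted cells, against 9.63, 9.56 and 9.002 in AhR-null cells. The reconstituted level was 43.1% of the AhR-null level (−1.22 ± 0.21, adjusted p = 0.0121, range 0.000393 to 0.0989). This call was lost without AhR-null number 1 or 2 or reconstituted number 1 or 3 (0.0692 to 0.0989). Usp18 read 7.80, 7.86 and 7.48 in reconstituted cells, against 8.36, 8.32 and 8.55 in AhR-null cells (−0.69 ± 0.14, adjusted p = 0.0450, range 0.00394 to 0.526). It was lost without any of 14 arrays (0.0531 to 0.231), namely any AhR-null DMSO array, any reconstituted array of the 3 treatments, number 2 with YH439 or suspended number 1 of the AhR-null line, and its second probe gave −0.49 (adjusted p = 0.526). Irf7 (−0.43, adjusted p = 0.563) and Ifit3 (−0.40, adjusted p = 0.519) did not pass, although for 4 of the 8 genes, these 2 included, all reconstituted arrays lay below all AhR-null arrays, against 5.61% of all genes. In the authors' processed values 35 genes were higher and 95 lower with DMSO, against 10 and 51 here.

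With YH439 the lines differed in Usp18, 1 of the 8 genes, against 0.816% of all genes lower and 1.44% called in either direction. Usp18 read 7.62, 7.62 and 7.42 in reconstituted cells, against 8.16, 8.22 and 8.67 in AhR-null cells (−0.80 ± 0.14, adjusted p = 0.00717, range 0.000805 to 0.791). The call was lost without reconstituted number 3 (0.0575), with the mean of both kept probes (−0.51, adjusted p = 0.182) and when only the compared groups were fitted (0.149), and the second probe gave −0.23 (adjusted p = 0.791). Ifi27l2a read 8.24, 8.66 and 8.41 in reconstituted cells, against 9.62, 9.53 and 8.84 in AhR-null cells. The groups did not overlap, and the difference of −0.89 ± 0.21 missed the threshold (adjusted p = 0.0510). It passed without AhR-null number 3 with YH439 (−1.14, adjusted p = 0.00599), without number 3 of the AhR-null DMSO or suspended arrays (0.0283 and 0.0289) and without the 6 dimmest arrays (−1.04, adjusted p = 0.000598; range 0.000598 to 0.265).

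In suspension 3 of the 8 genes were lower in reconstituted than in AhR-null cells, against 1.04% of all genes lower and 1.78% called in either direction. Usp18 read 7.77, 7.60 and 7.71 in reconstituted cells, against 8.97, 8.65 and 8.89 in AhR-null cells. This was 45.3% of the AhR-null level (−1.14 ± 0.14, adjusted p = 0.000508), and with the tested probe no alternative ended the call, while the second probe gave −0.66 (adjusted p = 0.214). Ifit3 read 7.19, 7.32 and 7.09 in reconstituted cells, against 8.29, 7.79 and 8.52 in AhR-null cells, or 49.98% of the AhR-null level (−1.001 ± 0.18, adjusted p = 0.00863). Its second probe gave −1.01 (adjusted p = 0.0364), and the call was lost without AhR-null number 1 (0.0512) or reconstituted number 3 (0.0550; range 0.000392 to 0.151). Ifi27l2a read 8.11, 8.00 and 8.12 in reconstituted cells, against 9.18, 9.14 and 8.62 in AhR-null cells (−0.90 ± 0.21, adjusted p = 0.0439, range 0.000433 to 0.177). It was lost without any of 14 arrays (0.0520 to 0.177): any of the 9 reconstituted arrays, number 1 or 2 of the suspended or DMSO AhR-null arrays, or number 2 of the AhR-null arrays with YH439.

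Stat2 and Irf7 lay near the threshold in the same comparison. Stat2 read 6.48, 6.88 and 6.72 in reconstituted cells, against 7.21, 7.10 and 7.28 in AhR-null cells (−0.50 ± 0.12, adjusted p = 0.0571, range 0.0209 to 0.368). Irf7 read 5.18, 5.14 and 4.92 in reconstituted cells, against 5.65, 5.94 and 6.19 in AhR-null cells (−0.85 ± 0.22, adjusted p = 0.0659, range 0.0210 to 0.242). For these 2 genes and the 3 that passed the lines did not overlap, 5 of the 8 genes against 6.86% of all genes. Without the 6 dimmest arrays both passed (Stat2 −0.35, adjusted p = 0.0209; Irf7 −0.77, adjusted p = 0.0379), but 2851 of all genes then passed as well, against 199 with all arrays. Gbp2, Ifi35 and Isg15 did not pass between the lines in any treatment, with differences from −0.32 to 0.02 for the tested probes. The second kept Gbp2 probe, near background, gave 0.69 with DMSO, −0.11 with YH439 and 0.06 in suspension (adjusted p = 0.141, 0.860 and 0.925). None of the 8 genes was higher in the reconstituted line past the threshold in any treatment, against 0.744% of all genes in suspension, 0.628% with YH439 and 0.0897% with DMSO.

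**Figure D3:**
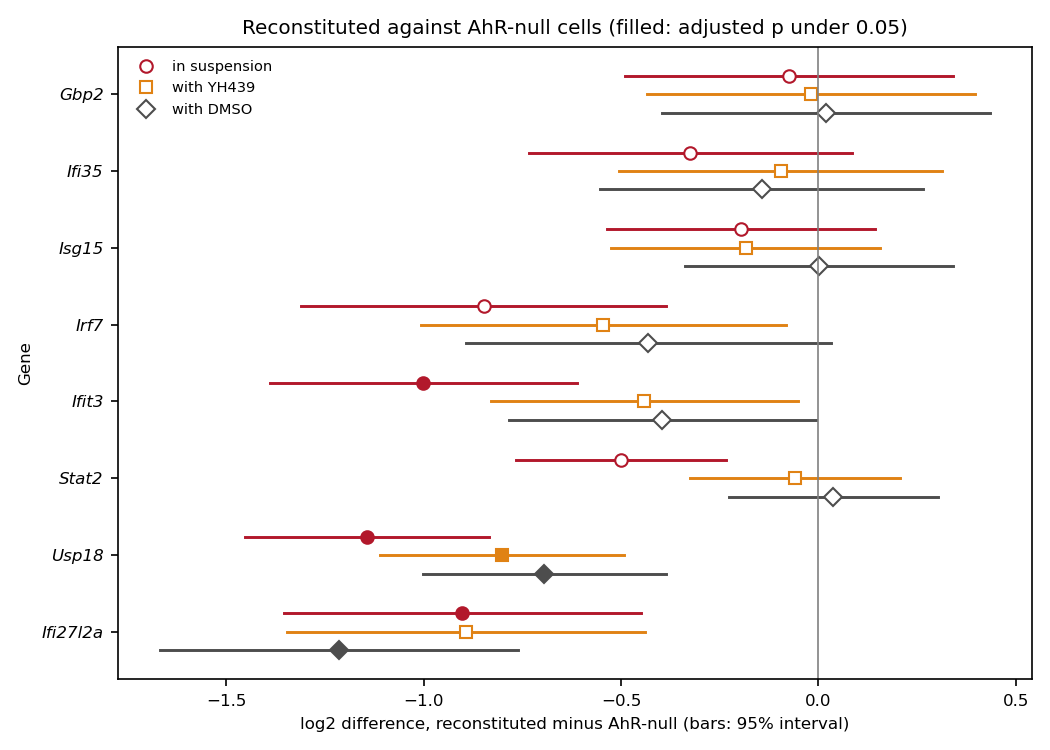
Log2 difference (reconstituted minus AhR-null, horizontal axis) of 8 interferon-stimulated genes (vertical axis) in suspension (circles), with YH439 (squares) and with DMSO (diamonds). Bars are 95% intervals from the fit over 18 arrays, and filled symbols passed an adjusted p under 0.05. Usp18 lies left of 0 with filled symbols in all 3 treatments (−1.14, −0.80 and −0.69), and Gbp2 lies near 0 in all 3.

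Ranked by group mean, the 8 genes gave 3 patterns. For Gbp2, Ifi35 and Isg15 the 4 adherent groups stood above both suspended groups. In Gbp2 the only neighbours in the order whose arrays did not overlap were suspended AhR-null cells at 8.28 ± 0.30 and the lowest adherent group, AhR-null cells with DMSO at 9.16 ± 0.19 (SD, n = 3), and the highest adherent group was AhR-null cells with YH439 at 9.30 ± 0.38. Isg15 had the same single gap, between suspended AhR-null cells at 8.61 ± 0.15 and reconstituted cells with YH439 at 9.14 ± 0.05, and Ifi35 had none. For Ifi27l2a, Irf7, Ifit3 and Usp18 the 3 reconstituted groups stood below the 3 AhR-null groups. In Usp18 the gap between the lines lay between reconstituted cells with DMSO at 7.71 ± 0.21 and AhR-null cells with YH439 at 8.35 ± 0.28, and suspended AhR-null cells stood apart above the rest at 8.84 ± 0.17. In Irf7 and Ifit3 the lowest group, suspended reconstituted cells, was the only one apart from its neighbour, at 5.08 ± 0.14 and 7.20 ± 0.12. In Ifi27l2a no neighbours were apart, although the lowest mean was 8.08 ± 0.07 in suspended reconstituted cells and the highest 9.40 ± 0.34 in AhR-null cells with DMSO. Stat2 stood alone, with suspended AhR-null cells at 7.20 ± 0.09 and the other 5 groups within 6.69 to 6.79.

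The rest of the interferon pathway was read from 8 lists of genes. Their counts stand against 13.4% of all genes that fell and 10.7% that rose in suspended reconstituted cells, and 11.9% and 10.8% in suspended AhR-null cells, with a median change of −0.04 over all genes in each line. For the ligands, transcription factors, sensors and inhibitors the counts are small and not far from these shares, so they are given as values of single genes and not as results about the lists. Of 18 interferon ligand genes on the array 13 were detected on no array, Ifnb1 and Ifng among them, and 4 were tested. Ifnab, an interferon alpha gene, was the only ligand gene that changed in suspension. It fell by 0.52 on the log2 scale (SE 0.10, adjusted p = 0.00190) in reconstituted cells, gave −0.03 in AhR-null cells (adjusted p = 0.875), and was 0.50 higher in reconstituted than in AhR-null cells with DMSO (adjusted p = 0.0450, and 0.0543 with the replicate block). None of the 8 tested receptor and kinase genes passed in either line, but with the replicate block, which pairs arrays within a line, 2 rose and 1 fell in suspended reconstituted cells and 4 rose and 2 fell in suspended AhR-null cells (48.6% and 47.1% of all genes passed with it). Among them Jak1, a kinase bound to interferon receptors and named after its values were seen, gave 0.68 in reconstituted and 0.50 in AhR-null cells (adjusted p = 2.96e-05 and 0.000291 with the block, 0.432 and 0.585 without). Ifnar1, a chain of the type I receptor, was detected on no array. Of 7 tested transcription factors 1 rose and 1 fell in suspended reconstituted cells, and 2 rose in suspended AhR-null cells. Irf2bp2, a co-repressor bound by IRF2, rose by 1.18 in reconstituted and 1.04 in AhR-null cells (adjusted p = 0.00690 and 0.0152). Irf5, an activator of inflammatory genes, fell by 0.75 in reconstituted cells (adjusted p = 0.0108), with −0.47 in AhR-null cells (0.105, and 0.00117 with the replicate block). Irf9, the DNA-binding part of ISGF3, rose by 0.41 in AhR-null cells (adjusted p = 0.0123), with 0.11 in reconstituted cells (0.508).

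Of 13 tested sensor and adaptor genes 1 rose and 2 fell in suspended reconstituted cells, and 2 rose and 3 fell in suspended AhR-null cells. Dhx58, which encodes the RNA sensor LGP2, fell by 0.99 in reconstituted and 0.85 in AhR-null cells (adjusted p = 0.000293 and 0.00112). Ddx58, which encodes RIG-I, fell by 0.46 and 0.42 (adjusted p = 0.00371 and 0.00675), and Tbk1, the kinase that activates IRF3, rose by 0.43 and 0.26 (0.00134 and 0.0319). Traf6, a ubiquitin ligase of Toll-like receptor signalling, rose by 0.67 in AhR-null cells (adjusted p = 0.0176), and gave 0.48 in reconstituted cells (0.0771, and 0.000222 with the replicate block). The remaining gene that fell in AhR-null cells, Ikbke, gave −0.50 there (adjusted p = 0.0259) and was named after its value was seen.

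Of 45 tested type I interferon targets outside the 9 genes, 14 fell and 1 rose in suspended reconstituted cells and 9 fell and 1 rose in suspended AhR-null cells, with median changes of −0.29 and −0.16. With the replicate block 26 fell and 4 rose in reconstituted cells, and 15 fell and 6 rose in AhR-null cells. Over all 11149 genes the block called 3056 lower and 2365 higher in reconstituted cells (48.6% in either direction). In AhR-null cells it called 2898 lower and 2352 higher (47.1%). Trim30a, an inhibitor of inflammatory signalling, fell by 1.28 in reconstituted and 0.75 in AhR-null cells (adjusted p = 7.70e-07 and 0.000130). Ly6e, a membrane-anchored interferon target, fell by 0.50 and 0.53, and Oasl1, a regulator of Irf7 translation, by 0.71 and 0.48. Ifi30, a lysosomal thiol reductase used in antigen processing, was the gene that rose, by 0.63 and 0.41. Between the lines with DMSO 2 of the 45 passed, against 0.457% of all genes lower and 0.0897% higher in reconstituted cells. Both were lower in reconstituted cells, Trim30a (a log2 difference of −1.05) and Ifi205, a nucleic acid-binding protein of the p200 family (−0.87). With YH439 4 of the 45 were lower and 1 higher in reconstituted cells, against 0.816% and 0.628% of all genes, and in suspension 8 were lower and 1 higher, against 1.04% and 0.744%. Of 9 tested interferon-gamma GTPases and chemokines 6 fell in suspended reconstituted cells and 3 in suspended AhR-null cells, with median changes of −0.61 and −0.22. Gbp3 fell by 0.85 and 0.56 and was lower in reconstituted than in AhR-null cells with DMSO (−0.52, adjusted p = 0.0461), and Gbp2b, listed as Gbp1, by 0.85 and 0.80. Gbp7 (−1.08 and −0.22) and Irgm2 (−0.53 and −0.03) passed in reconstituted and not in AhR-null cells, and the difference between the lines did not pass for either (adjusted p = 1.00 for both). The ISRE core was in the promoter windows of 9 of 10 genes of this list and of 16 of 46 in the type I list, against 3.99% of all 27025 genes. It was also in those of 10 of 18 ligand genes, 4 of 17 genes of MHC class I presentation and 3 of 11 sensor and adaptor genes. Of the transcription factors 1 of 8 held it, of the inhibitors 1 of 12 and of the receptors and kinases 0 of 8. A link between the motif and the changes was not tested.

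Of 17 tested genes of MHC class I presentation 5 fell and 1 rose in suspended reconstituted cells, and 6 fell and 1 rose in suspended AhR-null cells, with median changes of −0.26 and −0.25. With the replicate block 7 fell and 3 rose in reconstituted cells, and 8 fell and 2 rose in AhR-null cells. In either direction 48.6% and 47.1% of all genes passed with the block. The genes that fell included the 3 inducible subunits of the immunoproteasome, Psmb8 (−0.74 in reconstituted and −0.63 in AhR-null cells), Psmb9 (−0.95 and −0.84) and Psmb10 (−0.76 and −0.90), and the proteasome activator subunit Psme2 (−0.56 and −0.64). The gene that rose was Calr, an endoplasmic reticulum chaperone (0.81 and 0.79), named after its values were seen. Of 12 tested inhibitors of the pathway 2 fell and 1 rose in each line. Cish, a suppressor of cytokine signalling, fell by 0.48 and 0.84, Ptpn6, a tyrosine phosphatase of immune receptors, fell by 0.71 and 0.57, and Tnfaip3, a ubiquitin-editing inhibitor of NF-kB, rose by 0.65 and 0.83. None of the genes in the 8 lists passed with YH439 in either line, against 0.135% of all genes in reconstituted and 0% in AhR-null cells. With the replicate block Cxcl10, a chemokine of the interferon-gamma list, passed in reconstituted cells (−0.54, adjusted p = 0.0331), where 0.834% of all genes passed with the block. These counts are too close to the shares of all genes to be results about the lists.

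**Figure D4:**
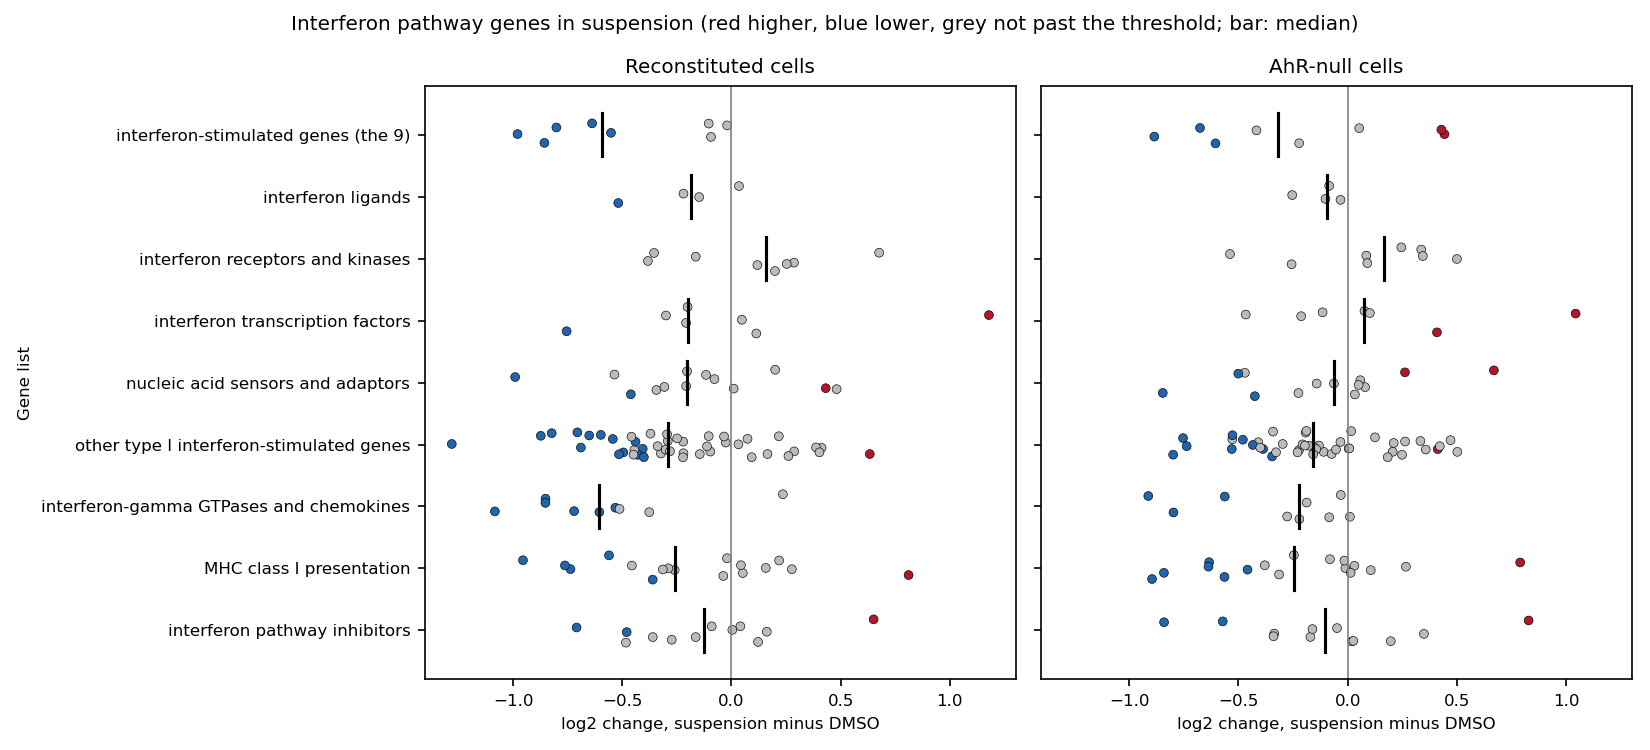
Log2 change (suspension minus DMSO, horizontal axis) of the tested genes of the 9 lists (vertical axis; the top row shows the 8 tested of the 9 interferon-stimulated genes) in reconstituted cells (left) and AhR-null cells (right). Points are genes, red and blue ones rose or fell with an adjusted p under 0.05, grey ones did not pass, and vertical bars are list medians. The medians of the interferon-stimulated genes (−0.59 and −0.32) and of the interferon-gamma GTPases and chemokines (−0.61 and −0.22) lie left of 0 in both lines.

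The genes whose levels ran most like the mean standardised level of the 8 genes over the 18 arrays were Inmt (Pearson r = 0.942), a methyltransferase, Oas1g (0.937), an oligoadenylate synthetase of the type I list, Trim30a (0.928), Bgn (0.923), a matrix proteoglycan, and Draxin (0.919), a secreted axon guidance protein. These values are descriptions over arrays that share groups and line. Within the 8 genes the correlation with their own mean ran from 0.893 for Ifit3 and 0.848 for Irf7 to 0.520 for Gbp2 and 0.347 for Stat2. Each of the 8 is part of that mean, which raises its own correlation. These 8 values are therefore no measure of likeness and are not set against those of the other genes.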

How the data were processed

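Array images were read by the authors in BeadStudio, per the submitters' processing notes, and its version was not given in the sources used here. Background-subtracted intensities stand in the deposited non-normalized table, for each probe on each array, beside the authors' detection p-value. The deposited processed table holds the authors' intensity values, which follow the same arrays (rank correlation at least 0.99896 above the floor of 20), are linear and uncentred, and rise with signal. Every column has a median at that floor. For the probes of the 9 genes above the floor, processed and non-normalized values are equal on number 2 of the reconstituted DMSO arrays and on no other array. The method that scaled the other arrays stays unknown. Group, line and replicate number came from the labels. From the non-normalized table, neqc of limma 3.58.1 (R 4.3.3) corrected the background by normexp, inferring the negative controls through the detection p-values, added 16, normalized by quantiles and took log2. Gene names came from the platform annotation: 34885 probes name 1 gene, 18 several and 10378 none, and 34807 of the named were found in a RefSeq table of GRCm38.p6, which changed 0 symbols. Of 22203 kept probes 18673 name 1 gene, and 4775 of the 11149 genes tested have more than 1 kept probe.

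lmFit and eBayes fitted the 6 group means to the 18 arrays together, leaving 12 residual degrees of freedom, with two-sided tests, Benjamini-Hochberg adjustment over 11149 genes in each of 9 comparisons and a threshold of 0.05. Values after ± are standard errors unless SD is stated. The scripts were tested on simulated data. No 2 arrays held identical values. Precision is limited by array number and by how far signals stand above background. The suspension and YH439 comparisons of a line share their DMSO arrays. Within a line, arrays of the same replicate number deviated together from their group means (correlation 0.173 to 0.862 in all 18 pairs). The 36 pairs of different numbers within a line ran from −0.807 to 0.683. AhR-null DMSO number 1 gave 0.673 with YH439 number 2 and 0.630 with YH439 number 1. The shared deviation is thus not particular to the number, and the labels do not say that numbers mark pairs. The number was used as a block within lines only as an alternative (8 residual degrees of freedom). Across lines the 27 pairs of the same number ran from −0.694 to 0.192, so the numbers do not pair the lines.

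The 9 genes, the lists and the alternatives were chosen with earlier results of these data known. Named genes were the 9 in every comparison, up to 4 of each list with the smallest p among those past the threshold in suspension in either line, those past it with YH439 or between lines with DMSO, and the 5 genes most correlated with the mean of the 8. Alternatives were no background correction, normexp by maximum likelihood, median scaling, no filter or detection p under 0.01, the authors' processed values, the mean of a gene's probes, each kept probe in turn, the compared groups alone, the replicate block, and leaving out each array or the 6 dimmest.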

Additional observations from a re-analysis of the deposited data

How the results depend on the processing

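No difference of the 8 tested genes that passed the threshold changed direction under any alternative. Of the 8, 5 passed in suspended reconstituted cells, and this became 3 with median scaling, 3 with no filter on dim probes and 3 to 5 with 1 array left out. In suspended AhR-null cells 5 became 1 (Gbp2) when only the groups compared were fitted, where Ifi35, Isg15, Stat2 and Usp18 had adjusted p of 0.0732, 0.0597, 0.0691 and 0.117, and 2 to 5 with 1 array left out. Between the lines with DMSO 2 became 1 with no background correction, 1 with median scaling, 1 with the mean of the kept probes, 1 with the replicate block across lines (Usp18 0.0606), 0 with only the groups compared and 0 to 2 with 1 array left out. With YH439 1 became 2 with normexp by maximum likelihood, 2 with a detection p under 0.01, 2 with the replicate block, 2 without the 6 dimmest arrays, 0 with only the groups compared and 0 to 2 with 1 array left out. Between the lines in suspension 3 became 1 with only the groups compared, 5 without the 6 dimmest arrays and 1 to 4 with 1 array left out. The count stayed at 0 under every alternative in the 4 other comparisons. By gene, median scaling ended the calls of Irf7 and Ifit3 in suspended reconstituted cells (0.0896 and 0.0584), of Usp18 in suspended AhR-null cells (0.0552) and between the lines with DMSO (0.0657), and of Ifi27l2a between the lines in suspension (0.0665), and with no filter on dim probes the same calls except Usp18 with DMSO were lost (0.0550 to 0.0657). No background correction ended Usp18 with DMSO (0.0558) and Ifi27l2a in suspension (0.0514), and normexp by maximum likelihood ended Irf7 in suspended reconstituted cells (0.0616). The mean of the kept probes ended Usp18 in suspended AhR-null cells (0.0865) and between the lines with DMSO and with YH439 (0.172 and 0.182), where Ifi27l2a then passed with YH439 (0.0462). The authors' processed values ended Ifi35 in suspended AhR-null cells (0.105) and Ifi27l2a between the lines in suspension (0.0693), where Stat2 and Irf7 then passed (0.0398 and 0.0210). Within lines the replicate block changed the call of Ifi27l2a in suspended AhR-null cells (adjusted p = 0.00227) and no other of the 8, and across lines, where the numbers do not pair the arrays, Ifi27l2a with YH439 (0.0211) and Irf7 in suspension (0.0441) passed. Over all genes the block called 5421 and 5250 for suspension in reconstituted and AhR-null cells, against 2689 and 2524 without it. Leaving out the 6 dimmest arrays called 2712, 2771 and 2851 genes between the lines with DMSO, with YH439 and in suspension, against 61, 161 and 199, and fitting only the groups compared called 7, 40 and 18. Fitting only those groups called 861 genes for suspension in AhR-null cells. The authors' processed values called 130 genes between the lines with DMSO, 427 in suspension and 39 for YH439 in reconstituted cells, the last against 15, and the block 93. Why the counts moved was not tested. Intensity near background limits Irf7 and the second probes of Gbp2 and Ifit3, and Ifit1 could not be measured.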
